A study of Mus musculus with 40 samples.

Results

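The response of Cdk8 knockout (KO) mouse embryonic stem cells (mESCs) to the ATR inhibitor (ATRi) AZD6738 was measured by poly(A) RNA-seq in 3 clones, B9, H4 and C8. Every library labelled as Cdk8 KO was taken, and its 2 sequencing lanes were summed, which gave 6 of the 20 libraries of the series (12 of 40 lane samples). Each clone gave 1 library from cells kept for 4 h with DMSO, the solvent control, and 1 from cells kept for 4 h with 900 nM AZD6738. The clones are independent CRISPR knockouts, and each is 1 cell line that brings its own history beside its Cdk8 lesion. All cells grew on gelatin in serum with LIF. WT mESCs under the same treatments, from the same multiplex of libraries, and the Ccnc KO clones D1, G2 and H5, from another multiplex, are set beside the clones below. The authors excluded the AZD6738-treated library of the second WT replicate because it stood apart. Without it, WT cells gave 1 pair of libraries and 1 DMSO library.

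CDK8 and its partner Cyclin C form, with MED12 and MED13, the kinase module of Mediator, the complex that links transcription factors to RNA polymerase II. ATR is the kinase that restrains origin firing and mitotic entry when replication forks stall, and AZD6738 (ceralasertib) blocks its catalytic site. The comparison within the clones asks which transcripts answer the drug when CDK8 has been removed, across all expressed genes.

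Gene counts per library lay between 30899823 (C8, DMSO) and 67274049 (C8, ATRi), so that C8 had the most unequal pair. Mitochondrial genes took 1.26% to 1.66% of the counts. Stem cell markers were at a summed 3684 to 4375 CPM (counts per library scaled to a common size) under DMSO and 3784 to 4453 under ATRi. Fibroblast markers summed to at most 23.3 CPM and mesoderm markers to at most 9.07 CPM. Trophectoderm markers summed to 36.6 to 259.9 CPM and primitive endoderm markers to 373 to 553 CPM, over both treatments and with no member that passed the test below. Neuroectoderm markers summed to 35.2 to 113.85 CPM. Sox2, a stem cell marker, was the 1 marker that passed it. The part of these cell types in the results was not tested.

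Cdk8 transcripts remained in the clones, where the counts cover the whole gene and do not show the edit itself. Their level was 57.9, 57.9 and 65.3 CPM under DMSO in B9, H4 and C8, and 52.9, 56.7 and 54.9 CPM under ATRi. The WT libraries held 78.9 and 71.4 CPM under DMSO and 71.8 CPM under ATRi, above every clone. WT levels, here and below, were scaled separately from those of the clones. Within the clones Cdk8 gave a log2 fold change of -0.14 ± 0.049 (SE, 3 pairs, adjusted p = 0.111). None of the 7 kinase module genes passed the test, and the median of their log2 fold changes was -0.06. Ccnc, for Cyclin C, lay at 46.0 to 48.8 CPM under DMSO and 46.5 to 50.4 CPM under ATRi. Ccnb1, for the mitotic Cyclin B1, is the transcript by which the time point had been picked. Its level was 235, 260 and 248 CPM under DMSO and at 245, 265 and 260 CPM under ATRi, and the log2 fold change of 0.05 ± 0.035 did not pass (adjusted p = 0.375).

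Of 17162 genes tested, 1193 passed at an adjusted p under 0.05 (6.95%), of which 489 rose (2.85%) and 704 fell (4.1%). Here and below, a fold change is ATRi over DMSO from edgeR's quasi-likelihood test with clone as a block, and adjusted p-values are over all genes tested. The changes were small. The median log2 fold change was 0.22 among genes that rose and -0.32 among those that fell, and 34 genes passed 2-fold (16 up, 18 down). All 3 clones moved the same way for 1176 of the 1193 genes, and for 621 the DMSO and ATRi libraries did not overlap at all, as was so for 2175 genes of all tested. The genes were called on these same pairs, so a shared sign among the clones follows largely from the call. The calls rest on the pairing by clone, since the unpaired test gave 0 (1020 genes at an unadjusted p under 0.05). Their number also moved with each clone, to 763 without B9, 283 without H4 and 2110 without C8. A correction for GC content and exonic length turned the split to 948 up and 642 down. In bulk RNA a lower level can come from fewer cells with a transcript or from less of it per cell, which cannot be told apart.

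**Figure D1:**
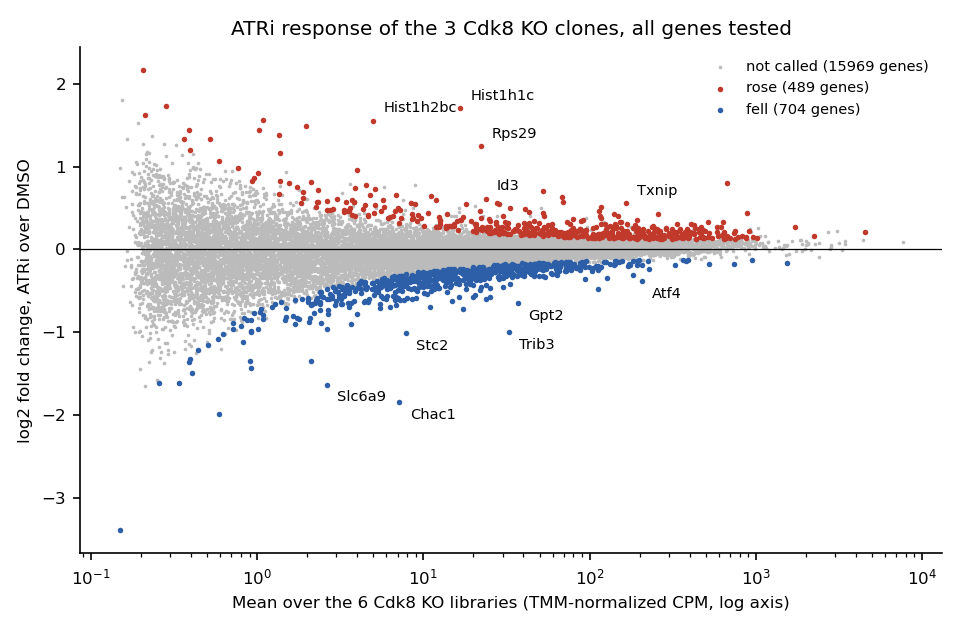
Log2 fold change (ATRi over DMSO, vertical axis) against the mean level over the 6 Cdk8 KO libraries (TMM-normalized CPM, log axis) for each gene tested, with the 489 genes that rose in red, the 704 that fell in blue and the others in grey. Most called genes lie within 1 log2 unit of 0, with Hist1h1c at 1.70 and Chac1 at -1.84 standing apart among genes above 5 CPM.

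The largest rise at 5 CPM or more was in Hist1h1c, which encodes a linker histone H1. Its level was 10.1, 6.03 and 7.25 CPM under DMSO and 32.2, 20.8 and 22.9 CPM under ATRi, in the order B9, H4, C8 used throughout. Every ATRi library was thus above every DMSO library, with a log2 fold change of 1.70 ± 0.068 (adjusted p = 2.37e-08), a 3.26-fold rise. Of the replication-dependent histone genes, which package newly made DNA, 35 of 67 were high enough to be tested, 8 rose and none fell, with a median log2 fold change of 0.37 beside -0.007 over all genes. The other members that rose were Hist1h2bc, Hist1h1e, Hist3h2a, Hist1h2af, Hist1h4i, Hist1h2ao and Hist1h2ap. Hist1h2bc went from 3.23, 2.06 and 2.32 CPM to 9.07, 5.93 and 7.35 CPM (log2 fold change 1.55 ± 0.11, adjusted p = 4.57e-06), again without overlap. Hist3h2a went from 0.746, 0.843 and 0.644 CPM to 1.95, 1.82 and 2.1 CPM (1.39 ± 0.19, adjusted p = 0.00169). Hist1h2ao, at 2.93 to 5.53 CPM under DMSO and 5.71 to 6.27 CPM under ATRi, was lost without C8 and under the GC and length correction, and, like Hist3h2a, was lost with DESeq2. Most mRNAs of this class end without a poly(A) tail and some copies are nearly identical, so these counts cover the polyadenylated, uniquely placed part.

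Histone genes that are expressed outside S phase rose too, 5 of 10 members with none lower and a median of 0.12. H1f0, the linker histone H1.0, stood at 39.2, 27.9 and 34.4 CPM under DMSO and 55.6, 40.8 and 45.9 CPM under ATRi (0.49 ± 0.048, adjusted p = 1.64e-04), with no overlap between the groups. H3f3b, for histone H3.3, moved from 595, 507 and 584 CPM to 791, 644 and 684 CPM (0.33 ± 0.039, adjusted p = 6.12e-04), also apart. H1fx rose by 0.35 ± 0.044 (adjusted p = 9.38e-04). Hist3h2a, Hist1h1e and H1fx overlap exons of a same-strand neighbour, whose reads may be lost or shared. H2afx, the H2A.X histone that is phosphorylated at breaks, rose by 0.26 and H2afz by 0.16.

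**Figure D2:**
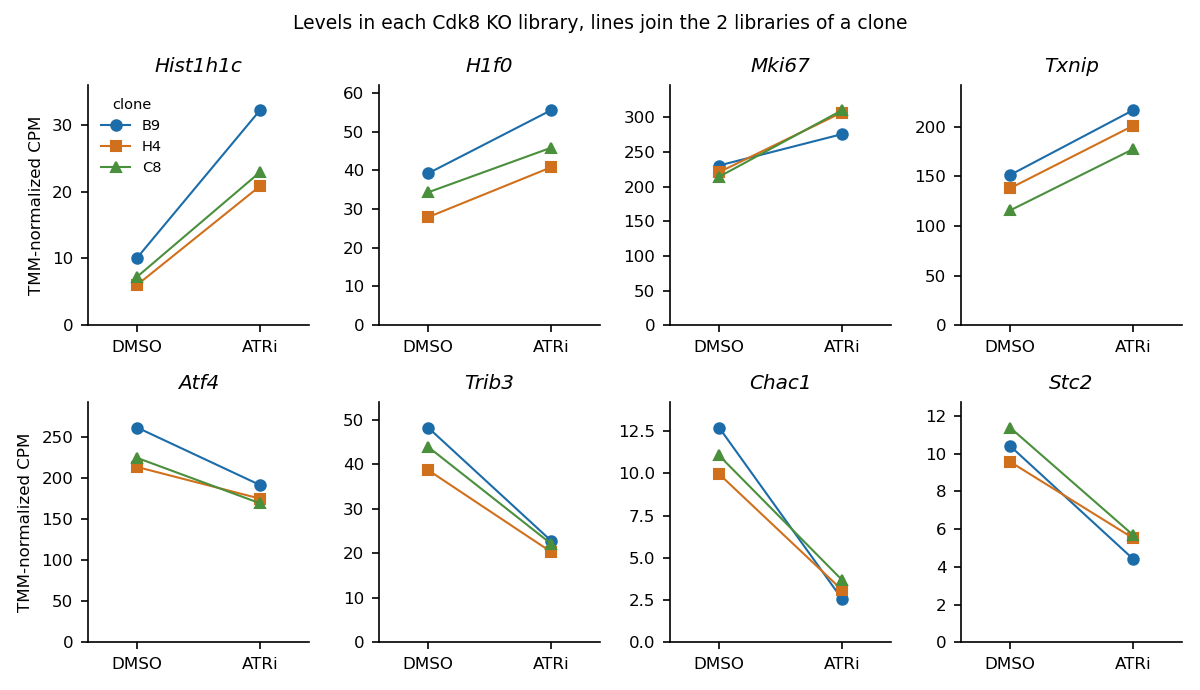
TMM-normalized CPM (vertical axes, from 0) of 8 genes in each Cdk8 KO library under DMSO and ATRi, where a line joins the 2 libraries of a clone. All 3 lines climb for Hist1h1c, H1f0, Mki67 and Txnip and descend for Atf4, Trib3, Chac1 and Stc2.

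Among the other genes with the largest rises, 2 encode ID proteins, which hold bHLH transcription factors away from DNA. Id3 went from 16.7, 21.6 and 18.2 CPM to 29.2, 31.0 and 25.7 CPM (0.61 ± 0.067, adjusted p = 3.63e-04), without overlap. Id2 differed far more between clones than between treatments, at 6.28, 24.8 and 13.8 CPM under DMSO and 10.9, 32.6 and 20.02 CPM under ATRi (0.55 ± 0.076, adjusted p = 0.00169). Txnip, which encodes a thioredoxin-binding protein that limits glucose uptake, stood at 151, 138 and 116 CPM and then 216, 201 and 177 CPM (0.56 ± 0.038, adjusted p = 4.57e-06). The rise of Txnip was 0.52 to 0.62 in the single clones and left no overlap. Msc, for a bHLH repressor, rose by 0.64 ± 0.081, Sox3, an early neural and pluripotency factor, by 0.55 ± 0.098, and Kctd12 and Arhgef26 by 0.60 ± 0.12 and 0.50 ± 0.093. Rps29 and Sumo2 carried less certain rises, because both have many near-identical processed copies in the genome that can take their reads. Rps29 lay at 7.92, 8.06 and 26.2 CPM under DMSO and 20.2, 35.0 and 36.7 CPM under ATRi (1.25 ± 0.19, adjusted p = 0.00327, lost with DESeq2). Sumo2 lay at 2.76, 3.24 and 5.80 CPM and then 5.75, 6.28 and 6.87 CPM (0.73 ± 0.14, adjusted p = 0.00980, lost without H4). In both genes the DMSO library of C8 was high and the groups overlapped.

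**Figure D3:**
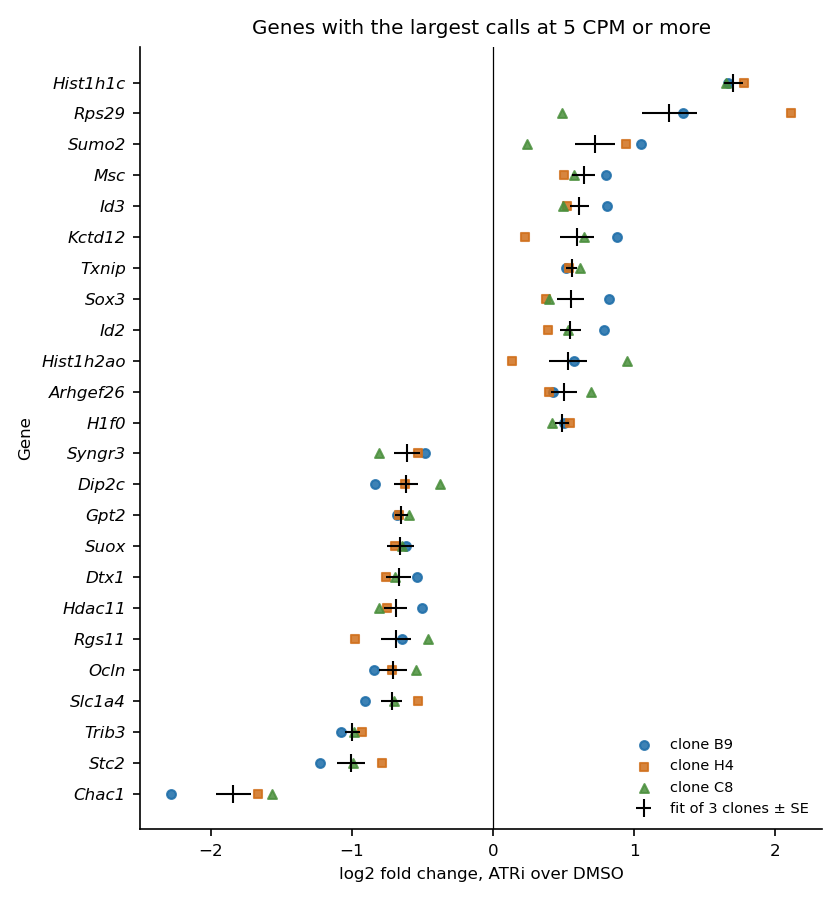
Log2 fold change (ATRi over DMSO, horizontal axis) of the 12 raised and 12 lowered protein-coding genes with the largest calls at a mean of 5 CPM or more, with 1 symbol per clone and the fit of 3 clones ± SE in black. Each symbol of a gene lies on the same side of 0, and the clones spread most for Rps29, where C8 is at 0.49 and H4 at 2.11.

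Of 80 genes of G2 phase and mitosis tested, 22 rose by small amounts, 1 fell and 57 did not pass, with a median of 0.08. Mki67, the source of the proliferation marker Ki-67, went from 231, 221 and 214 CPM to 276, 307 and 310 CPM (0.42 ± 0.047, adjusted p = 4.18e-04). Ckap2, for a spindle protein, went from 260, 286 and 242 CPM to 295, 342 and 297 CPM (0.24 ± 0.036, adjusted p = 0.00255), and the condensin gene Ncapg2 from 84.5, 77.7 and 82.5 CPM to 97.9, 88.8 and 102 CPM (0.24 ± 0.042, adjusted p = 0.00587). None of these 3 overlapped between treatments. The remaining 19 that rose, among them Plk1, Aurka, Cdc20, Ccna2 and Ccnb2, lay between 0.13 and 0.21 on the log2 scale. Top2a, for topoisomerase II alpha, was the member that fell (-0.16).

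Many mitotic promoters hold a CHR element, of which the letters TTTGAA are the core, and CCAAT boxes, and the windows of Mki67 and Ckap2 are printed to show both. The sequences are RefSeq's (GRCm38.p6), from 250 bases before to 30 after the annotated start, read 5′ to 3′ on the gene's strand. Capitals mark TTTGAA or CCAAT on either strand, searched separately and without regard to overlap. The Mki67 window (chr7:135716350-135716629, minus strand) holds 2 matches to TTTGAA and 3 to CCAAT, and that of Ckap2 (chr8:22185790-22186069, minus strand) holds 1 of each.
Mki67: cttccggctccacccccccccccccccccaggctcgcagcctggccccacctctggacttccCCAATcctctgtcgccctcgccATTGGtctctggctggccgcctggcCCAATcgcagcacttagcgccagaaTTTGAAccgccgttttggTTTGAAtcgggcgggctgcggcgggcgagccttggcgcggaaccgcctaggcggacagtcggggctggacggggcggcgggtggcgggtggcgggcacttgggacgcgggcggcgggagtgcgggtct
Ckap2: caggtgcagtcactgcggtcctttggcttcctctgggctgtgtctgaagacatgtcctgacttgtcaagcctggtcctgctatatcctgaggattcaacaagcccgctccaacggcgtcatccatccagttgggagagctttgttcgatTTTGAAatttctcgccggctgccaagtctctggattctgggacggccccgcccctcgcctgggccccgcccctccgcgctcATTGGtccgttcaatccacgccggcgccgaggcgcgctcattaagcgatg
Of the mitotic genes with a 300-base RefSeq window, TTTGAA was in 44 of 67 (65.7%) and CCAAT in 49 of 67 (73.1%), against 17.9% and 37.4% of all 32851 promoter windows. Among the members called, 16 of 19 held TTTGAA and 16 of 19 held CCAAT. Of all genes that rose and had a window, 17.9% held TTTGAA and 47.8% CCAAT. For the 11220 genes tested that had a window these shares were 14% and 42.8%. Shares of genes count a match in any window of the gene, unlike the shares of all windows. These matches are a description of letters and not of bound sites.

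Of 57 genes of the G1/S transition and DNA replication tested, 2 rose, 2 fell and 53 did not pass, with 39 above 0 and a median of 0.04. The shares called are near those over all genes tested, of which 2.85% rose and 4.1% fell. Tk1, for thymidine kinase, fell from 93.8, 89.9 and 89.9 CPM to 84.9, 75.0 and 74.1 CPM (-0.23 ± 0.043, adjusted p = 0.00852), and Pola2 fell by 0.15. Ung, which removes uracil from DNA, rose by 0.19 ± 0.040 and Ccne2, for Cyclin E2, by 0.25 ± 0.054. The calls of Tk1 and Ung were lost without H4, that of Ung also without B9. In the ATR-CHK1 checkpoint list 1 of 23 rose, Etaa1, for an activator of ATR (131, 121 and 123 CPM to 145, 130 and 148 CPM, 0.17 ± 0.041, adjusted p = 0.0266, lost without H4). Cdk2 and Wee1 in the same list gave -0.15 and 0.10 and did not pass. The 1 call among 23 is not above the share called over all genes tested (6.95%). Of 25 genes tied to R-loops and transcription-replication conflicts 4 rose and none fell. Top1, for topoisomerase I, rose by 0.20 ± 0.040, Dhx9 by 0.15 ± 0.033 and Thoc1 by 0.14, and without H4 the calls of Top1 and Dhx9 were lost, that of Dhx9 also without B9.

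Among protein-coding genes called at a mean of 5 CPM or more, the lowest log2 fold changes were those of Chac1, Stc2, Trib3 and Slc1a4, which are known to respond to ATF4. ATF4 is a transcription factor of the integrated stress response, which turns on amino acid transport and synthesis when cells lack amino acids or carry unfolded protein, and its partner sites are known as C/EBP-ATF response elements. Of 16 ATF4 and CHOP regulators tested, 8 fell, none rose and 8 did not pass, with a median of -0.24. Ddit3, for CHOP itself, gave -0.30 and did not pass (adjusted p = 0.125). Atf3, Atf5, Cebpg and Ppp1r15a did not pass either, at -0.06, -0.01, -0.14 and 0.095. Chac1, which encodes a glutathione-degrading enzyme, stood at 12.7, 9.96 and 11.1 CPM under DMSO and 2.58, 3.11 and 3.70 CPM under ATRi. Every ATRi library held less than every DMSO library, at 0.28 of the level (log2 fold change -1.84 ± 0.12, adjusted p = 4.57e-06). Trib3, for a pseudokinase that feeds back on ATF4, went from 48.2, 38.7 and 43.9 CPM to 22.9, 20.3 and 22.2 CPM, again apart (-0.998 ± 0.052, adjusted p = 4.08e-07). Atf4 itself went from 262, 214 and 225 CPM to 192, 175 and 169 CPM (-0.38 ± 0.040, adjusted p = 2.29e-04), also apart. Nupr1, Jdp2, Cebpb, Ddit4 and Sesn2 were the other members that fell, with log2 fold changes of -1.35, -0.85, -0.38, -0.29 and -0.20, of which the call of Sesn2 was lost without B9 or H4.

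The letters TGATGNAA cover the core of a C/EBP-ATF response element, and the windows of Chac1, Trib3 and Slc1a4, named as lowered genes that hold it, are printed with the match in capitals. They run over the same 280 bases around the start as above. The match begins at position -193 from the start in Chac1 (chr2:119350992-119351271, plus strand) and at position 14 in Trib3 (chr2:152344031-152344310, minus strand). In Slc1a4 (chr11:20332684-20332963, minus strand) it begins at position -4 and spans the start. All 3 matches are on the strand opposite to the gene.
Chac1: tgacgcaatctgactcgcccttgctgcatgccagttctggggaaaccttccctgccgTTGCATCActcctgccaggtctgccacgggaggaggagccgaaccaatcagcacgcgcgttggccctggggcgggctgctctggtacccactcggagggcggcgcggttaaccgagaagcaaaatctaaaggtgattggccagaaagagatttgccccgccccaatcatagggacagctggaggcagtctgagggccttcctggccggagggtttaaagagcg
Trib3: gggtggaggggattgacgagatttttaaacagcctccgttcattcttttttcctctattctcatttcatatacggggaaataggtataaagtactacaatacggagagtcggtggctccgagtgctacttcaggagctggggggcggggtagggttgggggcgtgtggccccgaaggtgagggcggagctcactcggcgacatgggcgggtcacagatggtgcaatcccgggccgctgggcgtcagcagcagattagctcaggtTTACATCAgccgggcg
Slc1a4: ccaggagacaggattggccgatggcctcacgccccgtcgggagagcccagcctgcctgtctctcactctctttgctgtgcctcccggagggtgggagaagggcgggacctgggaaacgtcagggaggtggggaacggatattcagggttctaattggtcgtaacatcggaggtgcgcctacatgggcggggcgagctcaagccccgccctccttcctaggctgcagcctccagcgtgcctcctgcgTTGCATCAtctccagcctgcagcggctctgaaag
TGATGNAA was in 5 of 15 ATF4 and CHOP regulators with a window (33.3%), in 4 of the 8 that fell, and in 3.97% of all windows. It was also in 5 of 12 aminoacyl-tRNA synthetases with a window (41.7%), a list in which 17 of 20 genes tested did not pass. Of the 536 genes that fell and had a window, 3.73% held TGATGNAA, beside 2.68% of the 11220 genes tested that had a window. Here too, shares of genes count a match in any window of the gene, unlike the share of all windows. None of the 7 called genes of serine, asparagine and proline synthesis held TGATGNAA within this window.

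Some genes of amino acid supply that are known to respond to ATF4 fell as well, while ATF4 activity was not measured. Of 12 amino acid transporters 6 fell, none rose and 6 did not pass, with a median of -0.17. Those that did not pass ran from -1.18 (Slc7a11) to 0.34 (Slc36a4). Slc3a2, Slc7a5 and Slc38a2 were among them, at -0.004, -0.05 and -0.05. Slc6a9, the glycine transporter GLYT1, went from 4.83, 3.11 and 4.00 CPM to 1.45, 1.18 and 1.22 CPM (-1.63 ± 0.14, adjusted p = 5.57e-05), without overlap. Slc1a4, a carrier of alanine and serine, went from 22.3, 22.0 and 20.2 CPM to 11.9, 15.2 and 12.4 CPM (-0.72 ± 0.075, adjusted p = 2.29e-04), also without overlap. Slc7a1, a carrier of arginine and lysine, started at 143, 74.3 and 99.6 CPM and ended at 105, 58.8 and 82.2 CPM (-0.35 ± 0.043, adjusted p = 7.32e-04), so that it fell in each clone while the groups overlapped. Slc7a3, Slc1a5 and Slc38a1 fell by 0.15 to 0.18. Of 14 genes of serine, asparagine and proline synthesis 7 fell and none rose, with a median of -0.18. Gpt2, for the mitochondrial alanine transaminase, stood at 46.5, 43.8 and 45.5 CPM and then 28.9, 27.6 and 30.1 CPM (-0.65 ± 0.048, adjusted p = 1.15e-05), and Mthfd2 of folate metabolism fell by 0.35 ± 0.044 and Psat1 by 0.19 ± 0.034, the last lost without H4. Asns, for asparagine synthetase, a well known target of ATF4, gave 0.01 and did not pass (adjusted p = 0.847). Aminoacyl-tRNA synthetases moved less, with 3 of 20 lower (Cars, Yars and Nars, -0.20 to -0.14) and none higher, and all 3 calls were lost without H4 (Cars and Nars also without B9).

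Of 6 genes tested for secreted and surface proteins of the stress response, 5 fell, with a median of -0.95, in a list put together with earlier results of these data known. Stc2, for stanniocalcin 2, went from 10.4, 9.56 and 11.4 CPM to 4.43, 5.53 and 5.69 CPM (-1.01 ± 0.097, adjusted p = 1.21e-04). Gdf15, a hormone induced by cell stress, went from 3.46, 3.00 and 3.00 CPM to 1.74, 1.80 and 1.57 CPM (-0.89 ± 0.14, adjusted p = 0.00327, lost with DESeq2). Neither gene overlapped between treatments. Vegfa, for the angiogenic growth factor, fell by 0.55 ± 0.062 from 31.7, 17.4 and 23.7 CPM to 20.4, 12.2 and 17.0 CPM, and Adm2 and Vldlr, both under 2 CPM, gave -1.98 and -1.34. Of 26 chaperones and other unfolded protein response genes of the endoplasmic reticulum tested, 2 rose and 1 fell with a median of 0.04. Over all genes tested 2.85% rose and 4.1% fell. Herpud1, of the degradation machinery there, was the one that fell (25.2, 20.9 and 25.4 CPM to 16.2, 15.6 and 16.1 CPM, -0.58 ± 0.066, adjusted p = 4.44e-04), whereas Hspa5 and Hsp90b1, for the chaperones BiP and GRP94, rose by 0.14 ± 0.035 and 0.16 ± 0.036, calls that were lost without H4.

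Genes of glycolysis and hypoxia fell in 9 of 26 cases and rose in none, with a median of -0.12. Bnip3, a mitophagy receptor, went from 22.1, 18.3 and 18.4 CPM to 14.1, 13.4 and 11.9 CPM (-0.58 ± 0.067, adjusted p = 5.46e-04), and Egln3, an oxygen sensor, from 10.4, 8.38 and 7.48 CPM to 6.57, 5.93 and 4.75 CPM (-0.61 ± 0.087, adjusted p = 0.00212). The groups did not overlap for either gene. Ldha, Pfkl, Tpi1, Pfkp and Egln1 fell by 0.13 to 0.21, and Vegfa and Ddit4 are shared with the lists above. The other strongly lowered genes at 5 CPM or more belong to no list, and all lay apart between treatments. They were Ocln, for a tight junction protein (-0.71 ± 0.10), Rgs11 (-0.69 ± 0.11), the histone deacetylase gene Hdac11 (-0.69 ± 0.082), Dtx1 (-0.67 ± 0.090), Suox (-0.66 ± 0.096), Dip2c (-0.62 ± 0.083) and Syngr3 (-0.61 ± 0.092). Hdac11, as an example, stood at 12.4, 14.9 and 13.2 CPM and then at 8.73, 8.86 and 7.51 CPM. Dip2c, like Kctd12, Top2a and Hsp90b1 among the genes named, overlaps a neighbour's exons on the same strand.

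p53 targets showed no common direction, with 2 up and 3 down among 31 and a median of 0.02, where 2.85% of all genes tested rose and 4.1% fell. Plk2 rose by 0.29 ± 0.049 and Eda2r by 0.31, while Ptprv fell by 0.38 beside Gdf15 and Sesn2, which are also ATF4-responsive. Of 21 immediate early genes, which answer growth factors within minutes, 6 rose and 1 fell, with a median of 0.14. The fall was that of Klf2, which is counted again among the pluripotency genes below. Ccn1 and Ccn2, among those that rose, are counted again among the actin and SRF targets. Egr1 went from 9.97, 13.1 and 9.92 CPM to 13.0, 16.6 and 12.4 CPM (0.35 ± 0.069, adjusted p = 0.0102, lost without H4). Myc, for the growth-promoting transcription factor, went from 120, 82.6 and 107 CPM to 146, 112 and 140 CPM (0.37 ± 0.041, adjusted p = 3.63e-04). Both rose in every clone although their groups overlapped. Ccn1, at 18.2, 85.5 and 27.8 CPM under DMSO and thus far higher in H4, rose by 0.32 ± 0.046. Feedback genes of FGF-ERK signalling rose in 3 of 12 cases, Dusp6 by 0.30 ± 0.036, Spry2 by 0.22 ± 0.036 and Dusp4 by 0.19 ± 0.048, the last of which was lost with DESeq2, at equal depth and without B9 or H4. Actin and SRF targets rose in 8 of 22 cases with a median of 0.15, such as Actb, for beta actin, from 1588, 1542 and 1558 CPM to 1758, 1931 and 1997 CPM (0.28 ± 0.041, adjusted p = 0.00233), which did not overlap.

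Among 22 genes of naive and core pluripotency 5 rose and 1 fell (median 0.05). Nr0b1, for the nuclear receptor DAX1, stood at 129, 108 and 122 CPM and then 179, 145 and 162 CPM (0.43 ± 0.037, adjusted p = 4.89e-05), and Sox2 rose by 0.19 ± 0.034, a call lost without H4. Klf2 fell from 224, 163 and 221 CPM to 191, 133 and 168 CPM (-0.31 ± 0.041, adjusted p = 0.00127). Formative genes gave 1 rise, Sox3, and 1 fall, Sall2 (-0.32 ± 0.070, lost with DESeq2 and without B9 or H4). None of the 19 genes of the 2-cell-like state found in the table was high enough to be tested. In the interferon list 1 of 22 fell, Tap1 (-0.38 ± 0.093, lost with DESeq2 and without H4), and the median was -0.12. That share is near the 4.1% of all genes tested that fell. Heat shock genes gave 1 rise, Hsph1 (0.15 ± 0.036), and 1 fall, Bag3 (-0.29 ± 0.049), among 16, and the call of Hsph1 was lost without B9 or H4. Of 25 sterol genes 3 rose, among them Insig1 (0.23 ± 0.048, lost without B9 or H4) and Ebp (0.19 ± 0.052), and 1 fell. The median of the sterol list was -0.001 and changed sign under 8 of the 12 alternative settings, between -0.014 and 0.013. The few calls in the formative, heat shock and sterol lists stand beside 2.85% of all genes tested that rose and 4.1% that fell.

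Of the cytosolic ribosomal protein genes, counted without the S6 kinase genes that share their symbol stem, 16 of 85 rose and 1 fell, with a median of 0.10. The clones were not alike here, since the medians were 0.16 in B9, 0.18 in H4 and -0.05 in C8. Rps15 shows the pattern, at 471, 493 and 626 CPM under DMSO and 627, 636 and 646 CPM under ATRi (0.27 ± 0.056, adjusted p = 0.0115, lost with DESeq2 and without H4). Among the 1056 shortest genes at 5 CPM or more, the medians were 0.07 in B9, 0.09 in H4 and -0.07 in C8. The part of gene length in the ribosomal values was not tested. Of the mRNAs encoded by mitochondrial DNA 1 of 10 rose, mt-Co1 (0.21 ± 0.045, lost with DESeq2 and without H4), beside 2.85% of all genes tested. The medians of these mRNAs were -0.01 in B9, 0.21 in H4 and 0.49 in C8. The 12S rRNA gene mt-Rnr1 rose by 0.20 ± 0.038, a call lost without B9, and the 16S rRNA gene mt-Rnr2 gave 0.21 ± 0.061 and did not pass.

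**Figure D4:**
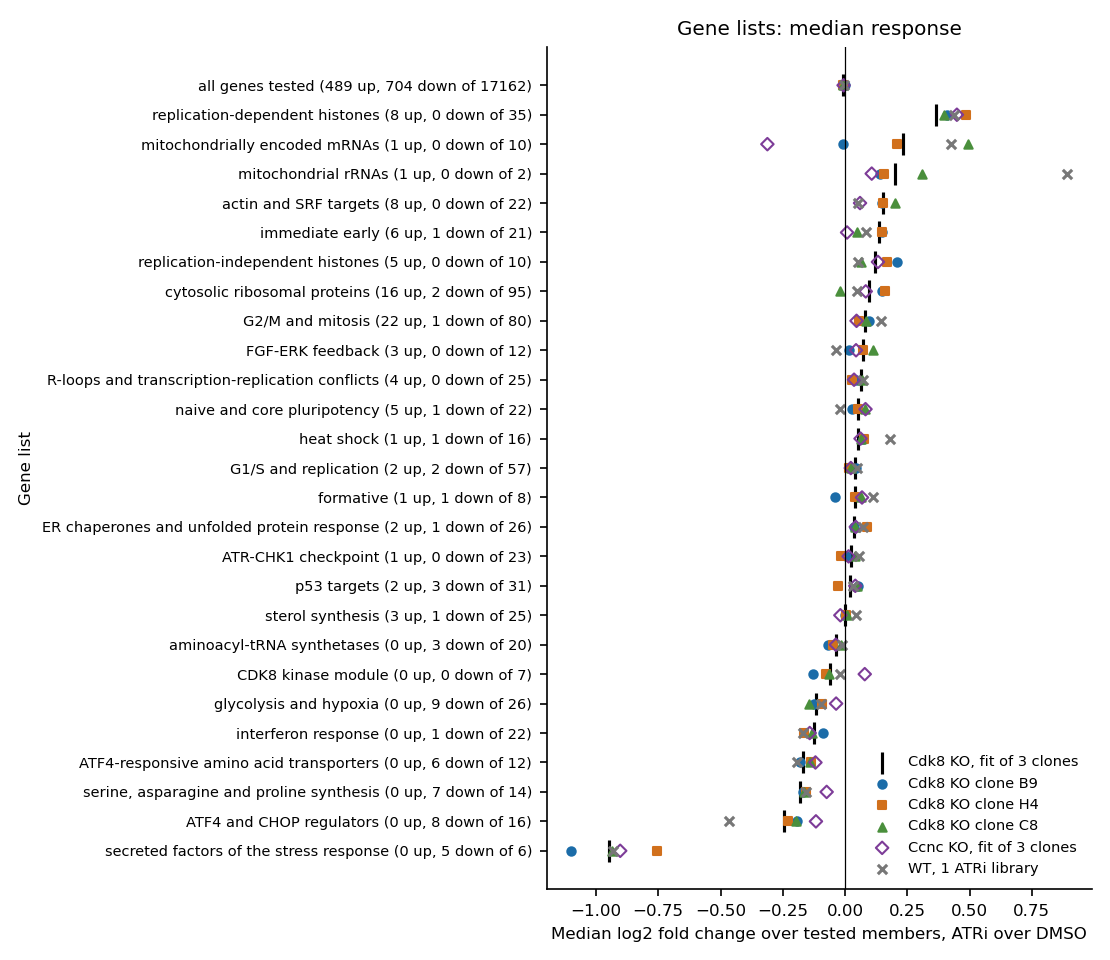
Median log2 fold change (ATRi over DMSO, horizontal axis) of the tested members of each gene list, with the number called in the Cdk8 KO clones beside its name, for the 3 clones, their joint fit, the Ccnc KO clones and the single WT pair. The ATF4, amino acid and secreted factor lists lie left of 0 and the histone lists right of it in each clone, while the ribosomal list (here with the S6 kinase genes) and the mitochondrial lists differ between clones.

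The clones differed in how the response ran with gene length. Over the 10555 genes at 5 CPM or more, the log2 fold change correlated with exonic length at a Spearman rho of -0.20 in B9, -0.21 in H4 and 0.22 in C8. These genes were split by exonic length into 10 bins of 1055 or 1056 genes. In the bin of the shortest, with a median length of 955 bases, the median log2 fold change was 0.07, 0.09 and -0.07. The bin of the longest, with a median of 12574 bases, gave -0.04, -0.03 and 0.04. Across the same genes the responses of 2 clones correlated at 0.66 for B9 with H4, 0.39 for B9 with C8 and 0.42 for H4 with C8. The genes of such a correlation share their libraries and are not independent. C8 also had the widest gap in depth within its pair, whose part in this trend was not tested.

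**Figure D5:**
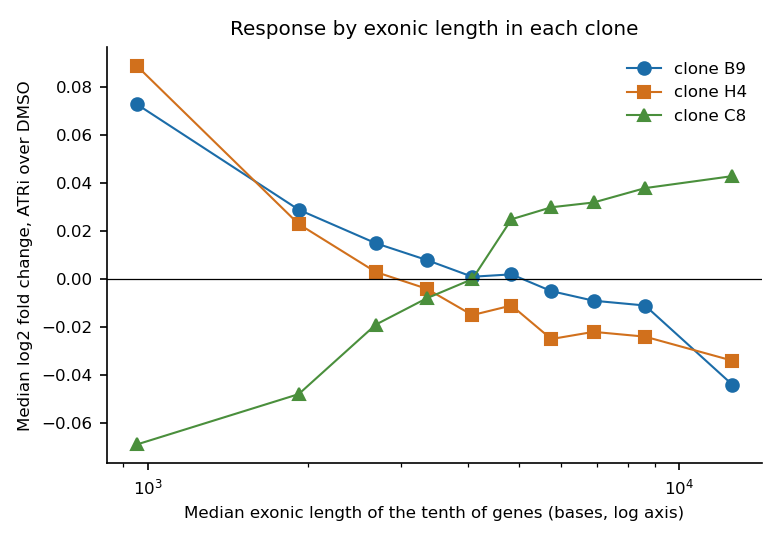
Median log2 fold change (ATRi over DMSO, vertical axis) in each of 10 length bins of the genes at 5 CPM or more, placed at the bin's median exonic length (bases, log axis), with 1 line per clone. The lines of B9 and H4 fall from 0.07 and 0.09 to -0.04 and -0.03, and that of C8 climbs from -0.07 to 0.04.

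The response was then compared with that of WT cells, of which 1 pair of libraries was used, by a test of the difference itself. Of 18721 genes tested 4 passed (0.0214%), and 954 had an unadjusted p under 0.05. All 4 had a lower log2 fold change in the clones than in the WT pair. Gm8659 and Gm5276 had opposite signs, at -0.22 and -0.41 in the clones and 1.60 and 1.28 in WT. For mt-Rnr2 the clones gave 369, 315 and 381 CPM and then 367, 355 and 521 CPM, and the WT pair 178 and 396 CPM, a difference of -0.95 ± 0.12 in log2 fold change (adjusted p = 0.00702). The second WT library under DMSO, which has no partner, held 343 CPM, close to the clones. The processed pseudogenes Gm8659 (-1.82 ± 0.23) and Gm5276 (-1.69 ± 0.23) and the unprocessed pseudogene Gm13340 (-0.56 ± 0.087) showed the same order, with the WT replicate 1 DMSO library low at 3.42, 2.17 and 139 CPM and replicate 2 at 9.61, 5.25 and 215 CPM. No gene passed once the excluded WT library was kept in (806 at an unadjusted p under 0.05), nor under a filter of at least 1 CPM in every library, while leaving out B9 gave 64 genes and leaving out C8 gave 222.

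In the ATF4 pathway Chac1 gave -1.84 in the clones and -2.1 in WT cells, a difference of 0.26 with a 95% interval from -0.24 to 0.76. Trib3 gave -0.998 and -1.15, with an interval of the difference from -0.06 to 0.37. The interval for Atf4 (-0.38 and -0.58) ran from 0.03 to 0.37, with an adjusted p of 0.965. Hist1h1c, Txnip and Id3 are given as raised genes whose difference from WT did not pass although its interval lay above 0. The intervals are not adjusted for the number of genes and rest on 1 WT pair. In this edgeR test 954 of 18721 genes had an unadjusted p under 0.05. These genes were also picked among the largest rises in the clones. Hist1h1c rose by 1.70 in the clones and 0.94 in WT cells, a difference of 0.77 with an interval from 0.48 to 1.05 (adjusted p = 0.0909). In CPM its WT levels were 12.2 and 12.6 under DMSO and 23.4 under ATRi. All 3 clones lay below both WT libraries under DMSO. Under ATRi B9 ended above the WT library, at 32.2 CPM, and H4 and C8 just below it, at 20.8 and 22.9 CPM. Txnip differed by 0.41 (interval 0.25 to 0.57, adjusted p = 0.106) and Id3 by 0.56 (0.28 to 0.83, adjusted p = 0.308). Ccnb1 gave 0.05 and 0.15, with an interval of the difference from -0.24 to 0.06.

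The Ccnc KO clones share no library with the Cdk8 KO clones, but were sequenced in another multiplex, from which a difference in genotype cannot be told apart. In them 109 of 16776 genes passed (0.65%). Among the 16581 genes tested in both, 74 were called in both, which is 6.23% of the 1188 Cdk8 KO calls and 67.9% of the 109 Ccnc KO calls, and 73 of the 74 moved the same way (31 up, 42 down). Of the 1188 genes, 1083 had the same sign in the Ccnc KO clones (91.2%), beside 65% of all genes tested in both. With the filter used throughout, no gene passed the test of the difference with edgeR or limma voom (0%), where 1146 genes had an unadjusted p under 0.05 with edgeR. The same difference passed for 4 genes with DESeq2 and for 181 with edgeR under a filter of at least 1 count. Without clone H5 of the Ccnc KO clones 34 passed. Hist1h1c rose by 1.62 and Hist1h2bc by 1.08 in the Ccnc KO clones, Chac1 fell by 1.92, Trib3 by 0.95, Stc2 by 1.04 and Atf4 by 0.44, and each of these passed there. Myc (0.15, adjusted p = 0.368), Id2 (0.33, adjusted p = 0.229) and Tk1 (0.00, adjusted p = 0.997) did not. Rps29, at -0.02 in the Ccnc KO clones, differed among these clones too, with 0.20 in D1, -1.78 in G2 and 1.52 in H5.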

How the data were processed

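The authors trimmed single-end, strand-specific reads (Trimmomatic 0.38), aligned them to GRCm38.p6 (HISAT2 2.1.0) and counted them per gene (featureCounts 2.0.1), and deposited raw counts per lane. Counting was set to skip marked duplicates, and no marking step is named. The deposited rlog tables (DESeq2) were not used. Here the 2 lanes of each library were summed. Counts were tested with edgeR 4.0.16 in R 4.3.3 (quasi-likelihood, TMM, filterByExpr, Benjamini-Hochberg over all genes tested, threshold 0.05). Each clone is 1 cell line and its libraries were paired by it; their deviations from the group means correlated at 0.638 (B9), 0.71 (H4) and 0.24 (C8). CPM are TMM-normalized; per-clone folds use a prior count of 2. Differences from WT and Ccnc KO were tested as interactions over 9 and 12 libraries. The SE is the fold change over the square root of F. With 1 library per clone and treatment and clone as a block, p-values rest on how the response differed between clones. The variance was moderated over genes (13.3 prior degrees of freedom in the main fit). The 1 WT pair gives no spread of the WT response.

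Members and lists were chosen with earlier results of these data known. The text names Cdk8 and its module, Ccnb1, Egr1, the 12 raised and 12 lowered protein-coding genes with the largest calls of 1 sign in 3 clones at 5 CPM or more, 3 genes per list by p, and genes called against WT or Ccnc KO. Other named genes were chosen after their values were seen, and a few called genes are not reported here. Genes in 27 lists were matched by symbol, older symbols through RefSeq. GENCODE M21 gave lengths and overlaps. Of the genes tested 11220 had a RefSeq promoter window. Reads of near-identical copies may be lost in counting. Tests were tried on simulated data, and DESeq2 1.42.0, limma 3.58.1 (voom), other filters, scalings and left-out clones were alternatives.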

Additional observations from a re-analysis of the deposited data

Results flagged for a closer look

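The response to ATRi differed between the Cdk8 KO clones and WT cells by the test of the difference itself for 4 genes (edgeR, adjusted p under 0.05), each with a smaller value in the clones. The difference in log2 fold change was -0.95 for mt-Rnr2, -1.82 for Gm8659, -1.69 for Gm5276 and -0.56 for Gm13340. In the clones these genes gave 0.21, -0.22, -0.41 and 0.22, and in the single WT pair 1.15, 1.60, 1.28 and 0.77. The DMSO library of that pair was the lowest of the 5 DMSO libraries compared for each gene, with mt-Rnr2 at 178 CPM. Its part in the differences was not tested beyond adding WT replicate 2 under ATRi, with which none of the 4 passed.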

How the results depend on the processing

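Counts of calls moved with the setting. Of the calls in the Cdk8 KO clones, 39.5% (at least 1 CPM in every library) to 59.6% (GC and length correction) rose, with 41.0% in the main fit. In the Cdk8 KO clones, 1193 calls became 0 without the replicate block, 576 with DESeq2, 1944 with a filter of at least 1 count, and 283 to 2110 with a clone left out. The other settings gave 1032 to 1590. Of the 79 named genes called, 0 kept the call without the block, 68 with DESeq2 and 51 without H4, and none changed sign. They were called in the main fit on the same libraries, which makes a change of sign unlikely. For the difference from WT, 4 calls became 0 without the block, 2 with DESeq2, 79 with at least 1 count, 0 with at least 1 CPM, 9 at equal depth, 0 with WT replicate 2 under ATRi, and 3 to 222 with a clone left out. For the difference from the Ccnc KO clones, 0 became 4 with DESeq2, 181 with at least 1 count, and 0 to 34 with a clone left out. In the Ccnc KO clones, 109 became 15 without the block, 667 with at least 1 count, 276 with the GC and length correction, and 228 to 466 with a clone left out. The causes were not tested. The thinning to equal depth, and all settings for the Ccnc KO clones, were chosen after seeing the data. Genes near 1 CPM, such as Adm2, rest on few reads.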

Other observations

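Of the genes outside the lists, 6 with small p-values in the Cdk8 KO clones are given here, chosen after their values were seen. Polr2a, for the largest subunit of RNA polymerase II, went from 856, 744 and 664 CPM to 1125, 935 and 1014 CPM in B9, H4 and C8 (log2 fold change 0.44 ± 0.046, edgeR adjusted p = 2.29e-04), without overlap. Brd2, for a bromodomain protein that reads acetylated histones, went from 503, 425 and 442 CPM to 619, 522 and 581 CPM (0.33 ± 0.0355, adjusted p = 3.14e-04), also apart. Mir17hg, the host transcript of the miR-17-92 cluster, rose by 0.45 ± 0.046 and overlaps a same-strand neighbour's exons. The imprinted gene Peg3 rose by 0.46 ± 0.041 and the membrane protein gene Emp1 by 0.41 ± 0.038. Slc16a3, for the lactate exporter MCT4, fell from 112, 151 and 131 CPM to 79.2, 110 and 95.2 CPM (-0.48 ± 0.038, adjusted p = 2.39e-05). In the Ccnc KO clones Polr2a gave 0.53, Brd2 0.32, Mir17hg 0.43, Peg3 0.52, Emp1 0.32 and Slc16a3 -0.34, of which Emp1 and Slc16a3 did not pass there.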
